A study of Mus musculus with 20 samples.

Results

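The epithelial sodium channel and the aldosterone pathway that controls it were represented by 9 genes, listed by name. They were the channel subunits Scnn1a, Scnn1b and Scnn1g, the mineralocorticoid receptor Nr3c2, the steroid-inactivating enzyme Hsd11b2, the kinase Sgk1, the ubiquitin ligase Nedd4l, the steroid-induced regulator Tsc22d3 and the sodium pump subunit Fxyd4. All 9 were among the 25700 genes counted and among the 15430 that passed the filter on low counts. Messenger RNA was sequenced in 20 mouse libraries from a study of bicarbonate given as alkali therapy in crystal nephropathy, a kidney injury caused by crystals. The 4 groups held 5 libraries each: oxalate mice on alkali therapy (alkali oxalate), oxalate mice without it (untreated oxalate), control mice on alkali therapy (alkali control) and control mice without it (untreated control). Every alkali library, and no untreated one, also carries the word "late" in its title, which the labels do not explain, so alkali therapy and whatever that word marks cannot be told apart. Strain, sex, age, dose, sampling time and tissue were not given in the sources used here, nor whether libraries stem from separate animals, and p-values therefore measure the spread between libraries.

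The epithelial sodium channel is built from α, β and γ subunits, encoded by Scnn1a, Scnn1b and Scnn1g, and carries sodium from the tubule fluid into principal cells of the late distal nephron and collecting duct. Aldosterone binds the mineralocorticoid receptor, which moves to the nucleus and raises transcription of targets such as Sgk1, whose kinase phosphorylates the ubiquitin ligase NEDD4-2 (Nedd4l) and so keeps it from removing the channel from the membrane. Cortisol and corticosterone bind the same receptor, and the enzyme encoded by Hsd11b2 inactivates them in these cells.

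The members lie apart in the genome except for one pair. On GRCm38, Scnn1g (chr7:121734479-121768475) and Scnn1b (chr7:121865038-121918514) are neighbours on the plus strand of chromosome 7, 96.6 kb apart. Scnn1a lies at chr6:125320659-125344943, Fxyd4 at chr6:117933559-117937692, Sgk1 at chr10:21882184-21999903, Nr3c2 at chr8:76899442-77245012, Hsd11b2 at chr8:105518755-105523988 and Tsc22d3 at chrX:140539528-140600659, while Nedd4l is on chromosome 18. Nr3c2 and Nedd4l share 247 and 277 exon bases with genes on the opposite strand that have no count of their own. Whether counting used the strand of the reads was not given, so a small part of their counts could come from those genes.

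Library totals ranged from 25547840 to 39550689 counts. Kidney tubule markers were abundant in every group: 6 proximal tubule genes summed to 17745 to 38353 CPM (counts scaled to library size) in alkali oxalate libraries, 14430 to 38018 in untreated oxalate, 40292 to 47666 in alkali control and 44796 to 52111 in untreated control libraries. The 8 markers of principal cells, the cell type that carries the channel, summed to 718 to 912 CPM, 697 to 984 CPM, 653 to 838 CPM and 683 to 790 CPM in the same order of groups. Cyp11b2, the aldosterone synthase of the adrenal gland, had 0 counts in all 20 libraries, which allows a level of up to 0.00485 CPM over all of them (counting error only). The other listed adrenal cortex markers did have counts. Star had 23 to 60 in each library, and Cyp11a1, Hsd3b1 and Cyp11b1 had 38, 16 and 8 in total over the 20 libraries. Of the 20 libraries, 6 held the fat-cell gene Adipoq at more than 1 CPM: replicate 33 of alkali oxalate, 32 of untreated oxalate, 1 and 4 of alkali control, and 9 and 26 of untreated control. In bulk tissue, fewer cells of a type and less RNA per cell cannot be told apart.

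Per kilobase of exon, Hsd11b2 had the highest level of the 9 genes in every group, with means of 142, 126, 96.9 and 90.9 CPM per kb in alkali oxalate, untreated oxalate, alkali control and untreated control libraries. The 3 channel subunits lay between 14.5 and 38.8 CPM per kb in all groups. Nr3c2, the receptor itself, had the lowest level of the 9 throughout, at 3.54, 3.05, 2.92 and 2.77 CPM per kb. By group mean, Scnn1a was the most abundant of the 3 subunits in both control groups and Scnn1b in both oxalate groups, but in 3 of the 5 alkali control libraries Scnn1b was above Scnn1a.

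**Figure D1:**
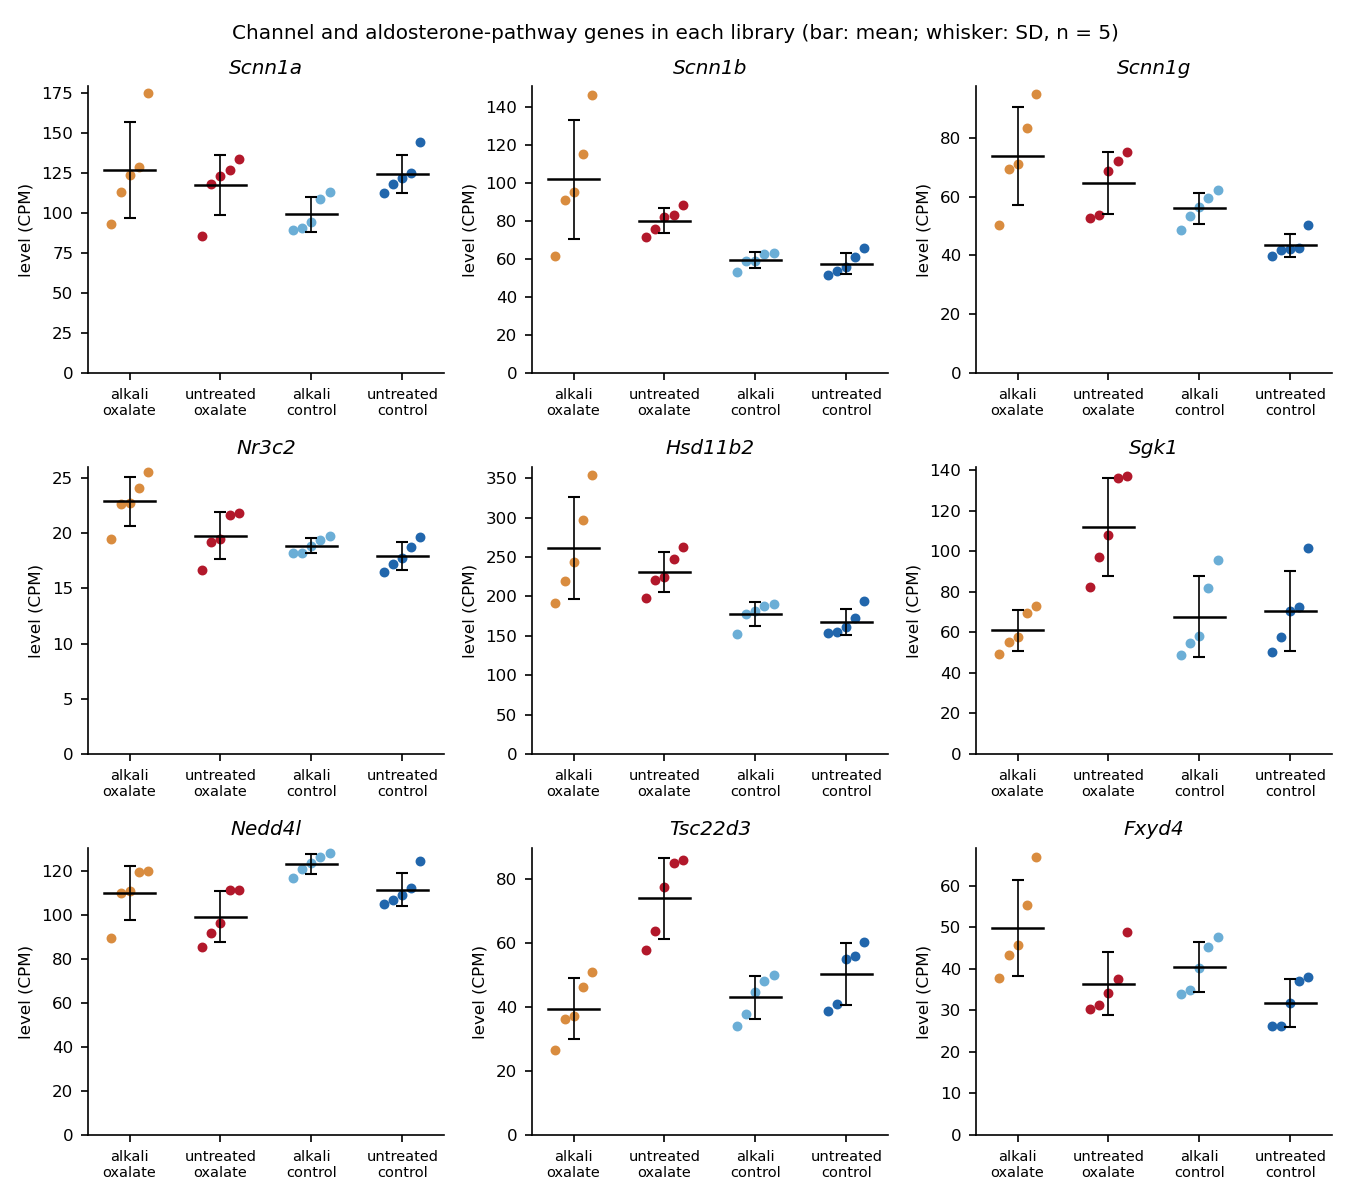
Each panel plots the level of 1 gene (CPM, linear axis from 0) in the 5 libraries of each group as points, with the mean as a bar and the SD as a whisker. The untreated oxalate points of Sgk1 and Tsc22d3 lie above all alkali oxalate points, and the Scnn1b and Hsd11b2 points of untreated oxalate libraries lie above those of both control groups.

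Setting untreated oxalate beside untreated control libraries asks how the pathway differs in crystal nephropathy without therapy. Transcripts of the β and γ subunits, of Hsd11b2, and of the steroid-induced genes Sgk1 and Tsc22d3 were 1.38 to 1.59 times as high in untreated oxalate libraries. The α subunit, the receptor, Nedd4l and Fxyd4 were not called. The count was 5 higher and 0 lower of 9, where 26.4% of all genes tested were called higher, 23.1% lower and 49.4% either way (edgeR quasi-likelihood test, Benjamini-Hochberg adjusted p under 0.05). The median log2 fold change of the 9 genes was 0.47, against 0 over all genes tested.

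Scnn1b, which encodes the β subunit, had 71.5, 75.9, 82.1, 83.3 and 88.4 CPM in untreated oxalate libraries, against 51.7, 54.0, 55.7, 61.1 and 65.7 CPM in untreated control libraries. All 5 oxalate libraries were above all 5 controls, with a log2 fold change of 0.48 ± 0.15 (SE) and an adjusted p of 0.0116. Scnn1g, which encodes the γ subunit, had 52.7, 53.8, 68.6, 72.1 and 75.2 CPM in untreated oxalate libraries, against 39.9, 41.9, 42.2, 42.5 and 50.2 CPM in untreated control libraries. The groups again did not overlap, although the highest control, replicate 35, came within a few CPM of the lowest oxalate library (log2 fold change 0.57 ± 0.14, adjusted p = 0.00185). Scnn1a, which encodes the α subunit and is the classic aldosterone-induced subunit in kidney, had 85.7, 118, 123, 127 and 134 CPM in untreated oxalate libraries, against 113, 118, 122, 125 and 144 CPM in untreated control libraries. These ranges overlapped almost wholly apart from 1 low oxalate library, replicate 40, and the log2 fold change was -0.08 ± 0.14 (adjusted p = 0.641).

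Sequence upstream of the 2 subunit genes that rose is shown because they are neighbours whose transcripts rose in the same comparison. Each line gives the 250 bases before the transcription start listed by RefSeq (GRCm38.p6, plus strand), with the GC box GGGCGG in capitals on either strand, read as CCGCCC where it lies on the other strand.
Scnn1g chr7:121734229-121734478: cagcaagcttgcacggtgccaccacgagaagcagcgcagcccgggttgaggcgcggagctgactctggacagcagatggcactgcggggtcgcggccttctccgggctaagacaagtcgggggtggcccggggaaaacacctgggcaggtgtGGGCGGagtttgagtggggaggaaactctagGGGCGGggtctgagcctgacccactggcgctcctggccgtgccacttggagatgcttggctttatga
Scnn1b chr7:121864788-121865037: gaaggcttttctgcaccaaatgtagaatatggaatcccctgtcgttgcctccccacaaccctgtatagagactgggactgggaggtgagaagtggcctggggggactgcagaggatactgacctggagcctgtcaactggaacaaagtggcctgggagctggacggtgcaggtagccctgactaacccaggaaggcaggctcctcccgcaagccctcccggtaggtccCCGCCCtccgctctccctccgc
The Scnn1g window held the GC box 2 times and the Scnn1b window 1 time, in windows that overlap no annotated exon. Over 32851 RefSeq promoter windows of the same length, 32.7% held it. Neither window held AGAACA, the core motif of the corticosteroid response element, on either strand, which 16.1% of all windows held. Windows were found for 6 of the 9 genes, not for Scnn1a, Hsd11b2 and Nedd4l.

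Hsd11b2, which protects the receptor from glucocorticoids, had 199, 221, 224, 248 and 263 CPM in untreated oxalate libraries, against 153, 155, 161, 173 and 194 CPM in untreated control libraries. The lowest oxalate library was above the highest control, and the log2 fold change was 0.47 ± 0.13 (adjusted p = 0.00678). Nr3c2 had 16.6, 19.2, 19.5, 21.7 and 21.8 CPM in untreated oxalate libraries, against 16.5, 17.2, 17.7, 18.8 and 19.6 CPM in untreated control libraries. Its groups overlapped, and the log2 fold change of 0.14 ± 0.08 was not called (adjusted p = 0.183).

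Sgk1, the aldosterone- and glucocorticoid-induced kinase, had 82.3, 97.4, 108, 136 and 137 CPM in untreated oxalate libraries, against 50.2, 57.8, 70.4, 72.5 and 102 CPM in untreated control libraries. It rose by a log2 fold change of 0.67 ± 0.20 (adjusted p = 0.00944), although 1 control library, replicate 19, was above 2 of the 5 oxalate libraries. Tsc22d3, which encodes the glucocorticoid-induced leucine zipper protein GILZ, had 57.8, 63.7, 77.4, 84.8 and 86.0 CPM in untreated oxalate libraries, against 38.7, 41.0, 55.0, 56.0 and 60.1 CPM in untreated control libraries. It rose by 0.56 ± 0.17 (log2 fold change, adjusted p = 0.00882), with a single control above the lowest oxalate library. Nedd4l ranged from 85.4 to 111 CPM in untreated oxalate libraries and from 105 to 124 CPM in untreated control libraries, and Fxyd4, a regulatory subunit of the sodium pump in the collecting duct, from 30.2 to 48.9 CPM and from 26.2 to 38.1 CPM. Both sets overlapped and neither was called, with log2 fold changes of -0.17 ± 0.09 for Nedd4l (adjusted p = 0.117) and 0.19 ± 0.16 for Fxyd4 (adjusted p = 0.336). Groups did not overlap for 3 of the 9 genes, where 33.8% of all genes tested did not.

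Markers of other cell types moved in the same comparison. Of the 8 principal cell markers, 2 were higher (Gata3 and Kcne1, log2 fold changes 0.60 and 0.64) and 1 was lower, the water channel Aqp4, with a log2 fold change of -2.41. All 6 proximal tubule markers were lower, all 5 macrophage and monocyte markers and all 5 fibroblast markers were higher, and the macrophage markers summed to 571 to 2412 CPM in untreated oxalate libraries, against 103 to 130 CPM in untreated control libraries. Also higher were 3 of 3 podocyte, 4 of 4 T and NK cell and 2 of 3 neutrophil markers (median log2 fold changes 0.443, 2.47 and 1.712). The same held for 1 of 6 intercalated cell, 1 of 3 thick ascending limb and 1 of 4 endothelial markers. The remaining marker lists had no call. The part of these shifts in the levels of the 9 genes was not tested.

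The other genes of the pathway were taken from 5 lists. Of all genes tested in this comparison, 26.4% were called higher and 23.1% lower, which is the background for the counts below. Of 16 genes of channel processing and turnover, 4 were higher and 4 lower in untreated oxalate libraries. St14, which encodes the protease matriptase, rose by a log2 fold change of 0.70 ± 0.13 (adjusted p = 0.000173, no overlap between groups). Serpine2, which encodes the serine protease inhibitor nexin-1, rose by 2.11 ± 0.24, Plau, which encodes urokinase, fell by 1.07 ± 0.19, and Prss8, which encodes the channel-activating protease prostasin, fell by 0.61 ± 0.17 (log2 fold changes, adjusted p = 1.7e-06, 0.000126 and 0.00627). Exons of Prss8 overlap those of Kat8 on the other strand by 122 bases. Of 13 kinases and regulators of sodium transport, 1 was higher and 4 lower, with Mtor, the kinase of the complex that activates SGK1, at -1.19 ± 0.20 (adjusted p = 0.000101). Under total-count scaling the calls of Mapkap1 (-0.11, adjusted p = 0.126) and Cul3 (-0.10, adjusted p = 0.144), both among the 4 lower genes, were lost. The Mtor call held, and not every one of the 4 was checked under that scaling. Of 10 genes for the related receptor and cofactors, 0 were higher and 5 lower, including Hsd11b1, which regenerates active glucocorticoid, at -1.62 ± 0.30 (adjusted p = 0.000224), and the glucocorticoid receptor Nr3c1 at -0.32 ± 0.11 (adjusted p = 0.0204). Total-count scaling ended at least 3 of these 5 calls, those of Nr3c1 (-0.0086, adjusted p = 0.947), Ncoa1 (-0.0266, adjusted p = 0.736) and Ncor1 (-0.17, adjusted p = 0.0596). The Hsd11b1 call held, and not every one of the 5 was checked under total-count scaling. The Nr3c1 call was also lost without untreated control replicate 13 (adjusted p = 0.0725) or untreated oxalate replicate 12 (0.059). Of the 9 tested of 10 genes of distal sodium and potassium transport, 1 was higher, the bicarbonate exchanger Slc4a8 (0.52 ± 0.14, adjusted p = 0.00436), and 2 were lower, among them the basolateral potassium channel Kcnj16 (-0.51 ± 0.16, adjusted p = 0.0110; not called under total-count scaling, -0.22, adjusted p = 0.0788). The thiazide-sensitive cotransporter Slc12a3 and the potassium channel Kcnj1 were not called, with log2 fold changes of -0.23 ± 0.17 and 0.09 ± 0.12.

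Corticosteroid-induced genes other than Sgk1 and Tsc22d3 were divided in this comparison. Of 12, 5 were higher and 2 lower, where 26.4% of all genes tested were called higher and 23.1% lower. The median log2 fold change of the 12 was 0.34. The 3 with the smallest p were endothelin Edn1 at 2.33 ± 0.24, the metallothionein Mt2 at 1.78 ± 0.29 and the cell cycle inhibitor Cdkn1a at 1.66 ± 0.29 (adjusted p = 8.1e-07, 8.4e-05 and 0.000119). All 3 are also known to respond to injury or stress. Mt2 shares 432 of its 588 exon bases with a gene on the opposite strand that has no count of its own. Cdkn1a and Edn1 share 273 and 35 bases with such genes. A part of the Mt2 counts could therefore come from the other strand. The 2 lower genes, named here after their values were seen, were the glucocorticoid-induced transcription factors Klf9 and Klf15. A pair of standard steroid reporters, the clock gene Per1 and the chaperone Fkbp5, had log2 fold changes of 0.71 ± 0.47 and -0.51 ± 0.23 and were not called (adjusted p = 0.216 and 0.0669). Over the 20 fits that left out 1 library, Fkbp5 was called lower in 4. Per1 was called higher in 1 of them, without untreated control replicate 19 (1.23, adjusted p = 0.0287).

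The 5 member calls held under the other scalings, filter and tests, in the fit of these groups alone and without any 1 library. Without the 6 libraries that contained Adipoq, an alternative chosen after seeing the data, 2 calls were left (Sgk1 and Tsc22d3), while Scnn1b, Scnn1g and Hsd11b2 had log2 fold changes of 0.44, 0.43 and 0.34 with adjusted p of 0.0781, 0.0573 and 0.118. Over all genes that fit called 3969 higher and 4039 lower, against 4067 and 3563 in the main fit. Scaling by total counts moved the median log2 fold change of all genes to 0.30 and the split of calls to 7498 higher and 1308 lower, against 4067 and 3563, and under it Nr3c2 (0.44) and Fxyd4 (0.48) were also called and Scnn1a (0.20) and Nedd4l (0.13) turned positive.

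**Figure D2:**
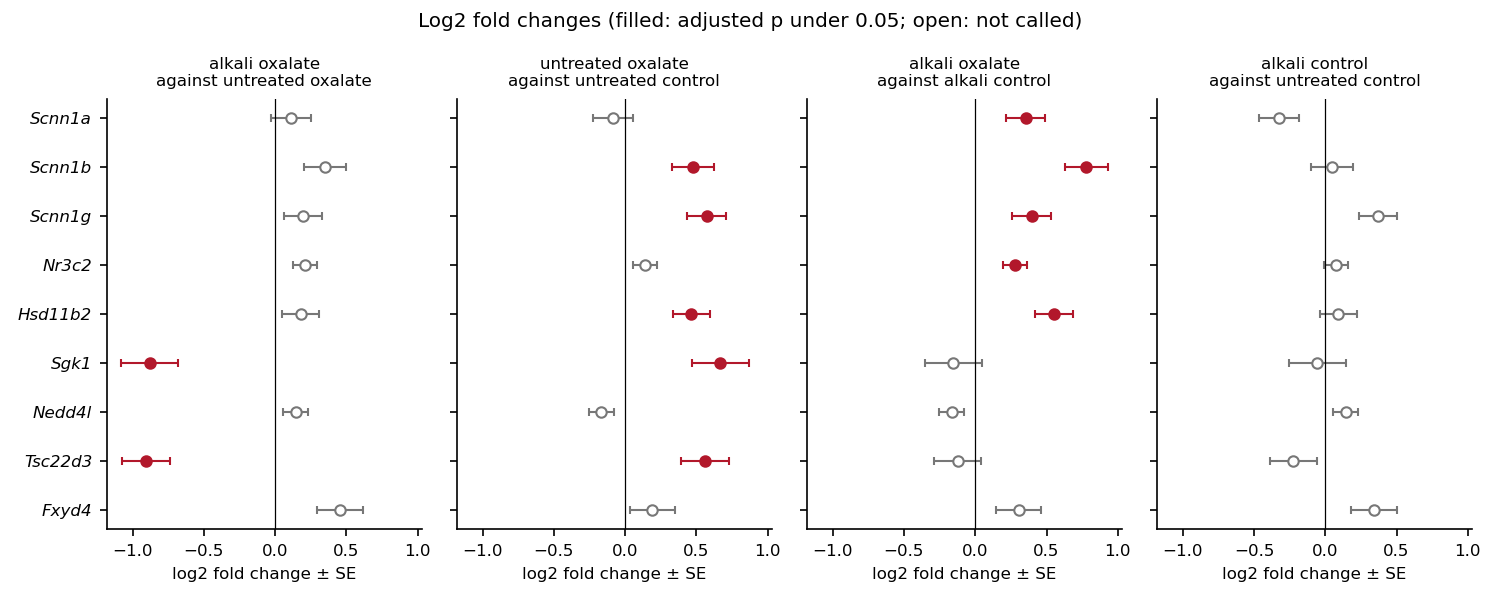
Points are log2 fold changes of the 9 genes in 4 comparisons, with whiskers of 1 SE, and filled points passed an adjusted p of 0.05. Sgk1 and Tsc22d3 are filled on opposite sides of 0 in the first 2 panels, and no point is filled in the comparison of alkali control with untreated control.

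The comparison of alkali oxalate with untreated oxalate libraries asks what differs with alkali therapy in crystal nephropathy. Sgk1 and Tsc22d3 fell to 0.54 and 0.53 times their untreated oxalate levels in alkali oxalate libraries, and no member rose past the test. The count was 0 higher and 2 lower of 9, where 1.76% of all genes tested were called higher, 2.33% lower and 4.08% either way. These counts over all genes, 271 higher and 359 lower, moved by over 1.5 times without some libraries: to 93 and 92 without untreated oxalate replicate 12, 167 and 182 without 3, 442 and 718 without 32 and 204 and 211 without 40, and to 112 and 92 without alkali oxalate replicate 30, 411 and 563 without 33 and 169 and 210 without 8. At an unadjusted p under 0.05 stood 5 of the 9 members and 20.5% of all genes. The median log2 fold change of the 9 was 0.18, against 0.006 over all genes tested. The channel subunits, Hsd11b2 and Nr3c2 were not called, and their fitted values were all above those of untreated oxalate libraries.

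Sgk1 had 49.4, 55.4, 57.7, 69.4 and 73.2 CPM in alkali oxalate libraries, against 82.3 to 137 CPM in untreated oxalate libraries. Every alkali oxalate library was below every untreated oxalate library, and the log2 fold change was -0.88 ± 0.20 (adjusted p = 0.0208). Tsc22d3 had 26.5, 36.2, 37.3, 46.1 and 51.0 CPM in alkali oxalate libraries, against 57.8 to 86.0 CPM in untreated oxalate libraries. Its groups did not overlap either, and the log2 fold change was -0.91 ± 0.17 (adjusted p = 0.00617). Groups did not overlap for 2 of the 9 genes, where 3.52% of all genes tested did not.

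The window upstream of an Sgk1 start is shown because Sgk1 changed in both of these comparisons and is a textbook direct target of corticosteroid receptors. Of the 6 Sgk1 windows, this one was picked because it holds the full corticosteroid response element. Its presence here was therefore fixed by the choice, and the share of all windows given below is no test. The window is the 250 bases before the RefSeq start at position 21993890 of chromosome 10 (GRCm38.p6, plus strand). Capitals mark the palindromic corticosteroid response element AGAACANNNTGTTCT and the E-box CACGTG.
Sgk1 chr10:21993640-21993889: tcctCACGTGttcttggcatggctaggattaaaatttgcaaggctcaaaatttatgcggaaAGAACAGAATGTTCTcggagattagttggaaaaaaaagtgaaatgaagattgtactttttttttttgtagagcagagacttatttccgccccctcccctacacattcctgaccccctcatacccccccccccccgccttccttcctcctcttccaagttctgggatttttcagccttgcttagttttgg
The element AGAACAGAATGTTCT spans -189 to -175 from that start, at chr10:21993701-21993715, and lies 965 bases upstream of the last Sgk1 start that RefSeq lists. Longer annotated Sgk1 transcripts run across the window as intron, and no annotated exon overlaps it. Of the 32851 promoter windows, 3 held the full element (0.00913%) and 6.02% held the E-box, which here overlaps a further AGAACA on the other strand by 2 bases at its end. AGAACA was in 3 of the 6 Sgk1 windows, in 1 of the 3 Tsc22d3 windows and in none of the windows of Scnn1b, Scnn1g, Nr3c2 and Fxyd4, searched on both strands.

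The 7 members that were not called in this comparison all had fitted log2 fold changes above 0, except that Scnn1a turned to -0.0323 without alkali oxalate replicate 8. Scnn1b had 61.6, 91.4, 95.5, 115 and 147 CPM in alkali oxalate libraries, against 71.5 to 88.4 CPM in untreated oxalate libraries. In total 4 alkali oxalate libraries were above the untreated range and 1, replicate 2, was below it, with a log2 fold change of 0.35 ± 0.15 (adjusted p = 0.184). Fxyd4 had 37.7, 43.3, 45.8, 55.5 and 67.03 CPM in alkali oxalate libraries, against 30.2 to 48.9 CPM in untreated oxalate libraries. These overlapped, at a log2 fold change of 0.45 ± 0.16 (adjusted p = 0.108). Nr3c2 had 19.5, 22.7, 22.7, 24.1 and 25.6 CPM in alkali oxalate libraries, against 16.6 to 21.8 CPM in untreated oxalate libraries, a log2 fold change of 0.21 ± 0.08 (adjusted p = 0.153). The log2 fold changes of Scnn1a, Scnn1g, Hsd11b2 and Nedd4l were 0.11 ± 0.14, 0.19 ± 0.13, 0.18 ± 0.13 and 0.15 ± 0.09, with adjusted p of 0.359 to 0.700. The spread between alkali oxalate libraries was wide for the channel genes: replicate 8 was highest and replicate 2 lowest for Scnn1a, Scnn1b, Scnn1g and Hsd11b2.

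Of the 5 pathway lists, 3 had no call in this comparison, and the edgeR test gave 2, 4 and 3 genes with an unadjusted p under 0.05 among 16 genes of channel processing and turnover, 10 of the related receptor and cofactors and 9 of distal transport. Over all genes tested, 20.5% had such a p. Of 13 kinases and regulators of sodium transport, 1 was higher, Wnk4 at 0.53 ± 0.15 (adjusted p = 0.0454), a kinase that regulates the thiazide-sensitive cotransporter. The Wnk4 call was lost in 15 of the 20 fits that left out 1 library (adjusted p of 0.0210 to 0.132 over the 20), under total-count scaling, without the filter, with limma voom and in the fit of the oxalate libraries alone. Of 12 corticosteroid-induced genes, 0 were higher and 1 lower, Edn1 at -0.86 ± 0.23 (adjusted p = 0.0372). The Edn1 call was lost in 5 of the 20 fits (adjusted p of 0.0168 to 0.125 over the 20), under total-count scaling and in the fit of the oxalate libraries alone. The median log2 fold change of the 12 was -0.58, against 0.006 over all genes tested, and 6 of the 12 had an unadjusted p under 0.05, where 20.5% of all genes did. Per1 and Fkbp5 were not called, at -1.10 ± 0.47 and -0.35 ± 0.23 (adjusted p = 0.194 and 0.414), nor were Prss8 (0.29 ± 0.17), Nr3c1 (0.07 ± 0.11), Slc12a3 (0.45 ± 0.17) and Kcnj1 (0.31 ± 0.12).

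**Figure D3:**
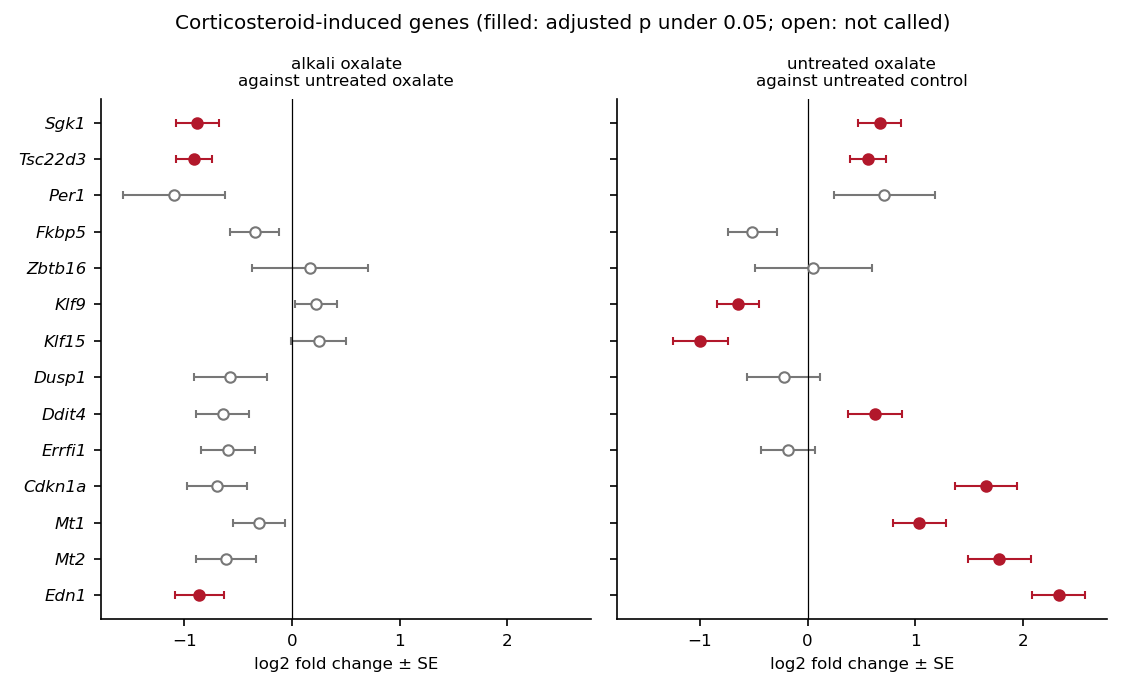
Log2 fold changes with whiskers of 1 SE of Sgk1, Tsc22d3 and the 12 other corticosteroid-induced genes, with alkali oxalate against untreated oxalate on the left and untreated oxalate against untreated control on the right, and filled points passed an adjusted p of 0.05. Sgk1, Tsc22d3 and Edn1 are filled in both panels, while Klf9 and Klf15 are filled on the low side in the right panel only; both panels use the untreated oxalate libraries.

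The markers of macrophages and monocytes, cells that also express Sgk1 and Tsc22d3, were lower in the same comparison for 1 of 5 genes past the test. All 5 had an unadjusted edgeR p under 0.05, where 20.5% of all genes did, and their median log2 fold change was -1.063. These 5 markers summed to 225 to 717 CPM in alkali oxalate libraries, against 571 to 2412 CPM in untreated oxalate libraries, and their part in the fall of Sgk1 and Tsc22d3 was not tested. Of the distal convoluted tubule markers, 2 of 3 were higher past the test (median log2 fold change 0.588), and of the intercalated cell markers 2 of 6 (0.356). Principal cell markers were higher for 1 of 8 (0.099) and endothelial markers for 1 of 4 (0.269). The remaining marker lists had no call. The part of these rises in the levels of the channel genes was not tested. The Sgk1 call was lost without untreated oxalate replicate 3 (adjusted p = 0.0512) or 40 (0.0513) or alkali oxalate replicate 30 (0.0641). With the oxalate libraries alone in the fit, where 29 genes were called in all (15 higher and 14 lower), neither gene passed (Sgk1 -0.86, adjusted p = 0.0608; Tsc22d3 -0.89, adjusted p = 0.0617), and calls were gained by Scnn1b without alkali oxalate replicate 2 (0.48, adjusted p = 0.0270) and by Fxyd4 without untreated oxalate replicate 39 (0.58, adjusted p = 0.0404), both in the fit of all groups.

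The comparison of alkali control with untreated control libraries asks what differs with alkali therapy in mice without oxalate. No member was called, and 0% of all genes tested were called by edgeR, with 3 of the 9 members and 2.52% of all genes at an unadjusted p under 0.05. Groups were free of overlap for 0 of the 9 members and 1.02% of all genes. DESeq2 called 3 genes in all and no member, and limma voom called 0. Scnn1g had 48.6, 53.4, 56.6, 59.5 and 62.2 CPM in alkali control libraries, against 39.9 to 50.2 CPM in untreated control libraries. Only the lowest alkali control library, replicate 4, fell within the untreated range (log2 fold change 0.37 ± 0.14, unadjusted p = 0.0129, adjusted p = 1). Scnn1a went the other way, with 89.6, 90.9, 94.2, 109 and 113 CPM in alkali control libraries, against 113 to 144 CPM in untreated control libraries (-0.32 ± 0.14, unadjusted p = 0.0299, adjusted p = 1). Fxyd4 had 34.0, 35.01, 40.2, 45.1 and 47.5 CPM in alkali control libraries, against 26.2 to 38.1 CPM in untreated control libraries (0.34 ± 0.16, unadjusted p = 0.0460, adjusted p = 1). The log2 fold changes of the other members lay between -0.22 for Tsc22d3 and 0.14 for Nedd4l, and that of Sgk1 was -0.06 ± 0.20.

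Sgk1 had 48.8, 54.7, 58.0, 81.9 and 95.7 CPM in alkali control libraries, a range inside the 50.2 to 102 CPM of untreated control libraries except for its lowest library. Tsc22d3 had 34.1, 37.8, 44.7, 48.2 and 50.0 CPM in alkali control libraries, against 38.7 to 60.1 CPM in untreated control libraries, also overlapping. None of the 5 pathway lists had a call in this comparison, and 1 of their 60 tested genes had an unadjusted p under 0.05. The cell marker lists had no call either. Of the distal convoluted tubule markers, 2 of 3 had an unadjusted edgeR p under 0.05, with a median log2 fold change of 0.5 for the 3. The same was true of 1 of 6 intercalated cell and 1 of 3 adipose markers.

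The comparison of alkali oxalate with alkali control libraries asks how the pathway differs in crystal nephropathy when both groups are on alkali therapy. The 3 channel subunits, Hsd11b2 and Nr3c2 were 1.21 to 1.72 times as high in alkali oxalate libraries, while Sgk1 and Tsc22d3 were not called. The Scnn1a call was marginal and failed in most other fits. The count was 5 higher and 0 lower of 9, where 23.4% of all genes tested were called higher, 17.1% lower and 40.4% either way. The median log2 fold change of the 9 genes was 0.30, against 0.024 over all genes tested.

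Scnn1b showed the widest difference of the 9, at 61.6 to 147 CPM in alkali oxalate libraries, against 53.1, 59.0, 59.3, 62.8 and 63.1 CPM in alkali control libraries. Only alkali oxalate replicate 2 fell within the alkali control range (log2 fold change 0.78 ± 0.15, adjusted p = 0.000794). Hsd11b2 had 192, 219, 244, 297 and 354 CPM in alkali oxalate libraries, against 153, 177, 182, 188 and 191 CPM in alkali control libraries. The groups met but did not overlap (0.55 ± 0.13, adjusted p = 0.00425), and this was the 1 member of 9 without overlap, where 16.3% of all genes tested had none. Scnn1g had 50.3, 69.5, 70.9, 83.2 and 94.8 CPM in alkali oxalate libraries, against 48.6 to 62.2 CPM in alkali control libraries (0.40 ± 0.14, adjusted p = 0.0259). Scnn1a had 93.5, 113, 124, 129 and 175 CPM in alkali oxalate libraries, against 89.6 to 113 CPM in alkali control libraries (0.35 ± 0.14, adjusted p = 0.0483). Overlap came from alkali oxalate replicate 2 for both subunits and, for Scnn1a, also from replicate 33. Nr3c2, at 19.5 to 25.6 CPM in alkali oxalate libraries and 18.2 to 19.7 CPM in alkali control libraries, rose by the smallest step of the called members (0.28 ± 0.08, adjusted p = 0.0145).

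Sgk1, Tsc22d3, Nedd4l and Fxyd4 were not called, with log2 fold changes of -0.15 ± 0.20, -0.12 ± 0.17, -0.16 ± 0.09 and 0.30 ± 0.16. Under total-count scaling, which moved the median of all genes to 0.24 and the split of calls to 5645 higher and 953 lower, against 3604 and 2633, the first 3 of these turned positive and Fxyd4 was called (0.54, adjusted p = 0.0241). Nedd4l had 89.5, 109.8, 111, 119 and 119.7 CPM in alkali oxalate libraries, against 117, 121, 124, 126 and 128 CPM in alkali control libraries, with 3 of the 5 alkali oxalate libraries below the alkali control range.

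Of all genes tested in this comparison, 23.4% were called higher and 17.1% lower. In the pathway lists, 3 genes of channel processing and turnover were higher and 3 lower of 16, with Serpine2 at 1.62 ± 0.24 and Plau at -0.67 ± 0.18. Prss8 was not called (-0.37 ± 0.17, adjusted p = 0.0893). Of 13 kinases and regulators, 3 were higher and 5 lower, among them Wnk4 at 0.47 ± 0.15, its partner kinase Stk39 at 0.40 ± 0.12 and Mtor at -0.75 ± 0.20. One of 10 genes for the related receptor and cofactors was lower, the coactivator Ncoa2 at -0.38 ± 0.12, a call lost in 4 of the 20 fits that left out 1 library (adjusted p up to 0.073), under total-count scaling (-0.18, adjusted p = 0.17) and without the Adipoq libraries (0.105), and Nr3c1 was not called (-0.22 ± 0.11, adjusted p = 0.106). Corticosteroid-induced genes were 3 higher and 3 lower of 12, with Edn1 at 1.33 ± 0.24, Cdkn1a at 0.98 ± 0.28 and Mt2 at 0.98 ± 0.29 higher, Fkbp5 at -0.60 ± 0.23 lower and Per1 at -0.05 ± 0.47 not called. The Fkbp5 call was lost in 7 of the 20 fits that left out 1 library (adjusted p up to 0.113), under total-count scaling (-0.40, adjusted p = 0.129) and without the Adipoq libraries (0.0547). Without those libraries Plau, Mtor, Cdkn1a and Mt2 were not called either (adjusted p = 0.0729, 0.0808, 0.0993 and 0.206), and the Wnk4 call was lost without alkali oxalate replicate 8 (0.0582). Slc4a8, at 0.69 ± 0.14, was the 1 call among 9 genes of distal transport.

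Principal cell markers were 2 higher and 1 lower of 8 in the same comparison, intercalated cell markers 4 higher of 6, endothelial markers 4 of 4, podocyte markers 3 of 3, fibroblast markers 5 of 5, macrophage and monocyte markers 4 of 5 and T and NK cell markers 4 of 4, while 5 of 6 proximal tubule markers were lower. The median log2 fold changes of the macrophage, T and NK cell and fibroblast markers were 2.35, 1.97 and 1.46. Fibroblast markers summed to 256 to 672 CPM in alkali oxalate libraries, against 119 to 234 CPM in alkali control libraries. Intercalated cell markers summed to 341 to 560 CPM in alkali oxalate libraries, against 328 to 381 CPM in alkali control libraries, and the part of these shifts in the rise of the channel genes was not tested. The Scnn1a call was lost in 16 of the 20 fits that left out 1 library (adjusted p of 0.00893 to 0.195 over the 20), lowest in effect without alkali oxalate replicate 8 (0.21). It was also lost with RLE scaling (adjusted p = 0.0513), without the filter (0.0839), with limma voom (0.068) and in the fit of these groups alone (0.0707). The call of Scnn1g was lost without alkali control replicate 1 (adjusted p = 0.0561) or 4 (0.0597) or alkali oxalate replicate 5 (0.0669) or 8 (0.0964). Without the 6 libraries that contained Adipoq, only Scnn1b of the 9 was still called, and Hsd11b2, Nr3c2, Scnn1a and Scnn1g had log2 fold changes of 0.47, 0.26, 0.48 and 0.29 with adjusted p of 0.0643, 0.103, 0.0645 and 0.227. Over all genes that fit called 2263 higher and 956 lower, against 3604 and 2633 in the main fit.

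Whether the effect of alkali differed between oxalate and control mice was tested as an interaction, the log2 fold change with alkali in oxalate mice minus that in control mice. No member was called, nor was any gene (0% by edgeR, with 9.26% of all genes at an unadjusted p under 0.05; DESeq2 called 15 genes and no member). Tsc22d3 had an interaction of -0.68 ± 0.24, made of -0.91 in oxalate mice and -0.22 in control mice, and Sgk1 one of -0.82 ± 0.28, made of -0.88 in oxalate mice and -0.06 in control mice. Both had unadjusted p near 0.01 (0.00869 and 0.00882) and an adjusted p of 0.474, so a difference between oxalate and control mice was not shown. Scnn1a was the third member with an unadjusted p under 0.05 (0.44 ± 0.20, unadjusted p = 0.0378, adjusted p = 0.515). The other 6 interactions ranged from -0.18 for Scnn1g to 0.30 for Scnn1b.

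The channel is assembled from all 3 subunits, so the ratio between their transcripts within a library was also compared. Such a ratio does not depend on how libraries are scaled. The level per kilobase of Scnn1g over that of Scnn1a was 0.743, 0.744, 0.748, 0.867 and 0.926 in alkali oxalate libraries, 0.617, 0.708, 0.808, 0.817 and 0.867 in untreated oxalate libraries, 0.615, 0.651, 0.861, 0.873 and 0.959 in alkali control libraries and 0.407, 0.466, 0.475, 0.518 and 0.555 in untreated control libraries. Untreated control libraries therefore had the lowest 5 ratios of all 20, with a mean of 0.484 ± 0.056 (SD, n = 5), against 0.805 ± 0.086 in alkali oxalate, 0.764 ± 0.100 in untreated oxalate and 0.792 ± 0.150 in alkali control libraries. The ratios are a description, with no test, since they were formed after the levels of the subunits were known.

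Scnn1b over Scnn1a averaged 1.25 ± 0.17 in alkali oxalate, 1.09 ± 0.14 in untreated oxalate, 0.951 ± 0.151 in alkali control and 0.727 ± 0.040 in untreated control libraries. Both oxalate groups lay wholly above the untreated control range of 0.664 to 0.767, while 1 alkali control library reached into it. Scnn1g over Scnn1b stood apart in alkali control libraries, at 0.796 to 0.871, above the 0.570 to 0.718 of alkali oxalate and the 0.570 to 0.723 of untreated control libraries and overlapping the 0.612 to 0.806 of untreated oxalate libraries. The 2 alkali control libraries with the lowest ratios to Scnn1a, replicates 1 and 4, were the 2 of that group that contained Adipoq. Without the 6 Adipoq libraries the ranges of Scnn1g over Scnn1a were 0.743 to 0.926 in alkali oxalate, 0.617 to 0.867 in untreated oxalate, 0.861 to 0.959 in alkali control and 0.475 to 0.555 in untreated control libraries, again with untreated control libraries below all others.

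**Figure D4:**
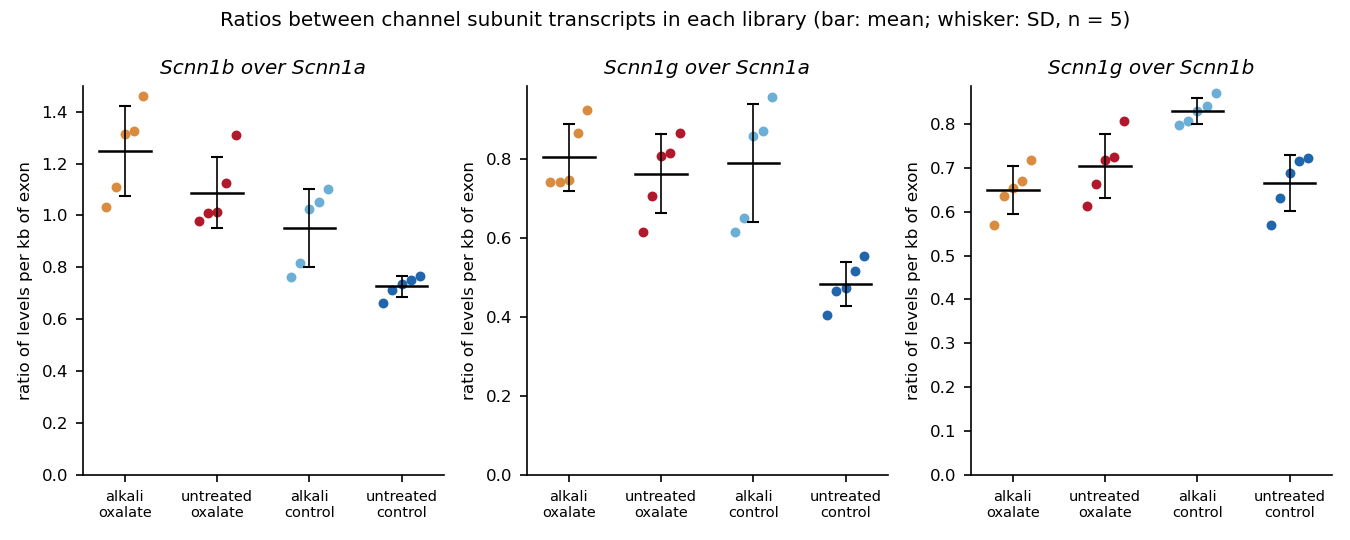
Ratios between subunit transcript levels per kilobase of exon in each of the 20 libraries (points), with the mean as a bar and the SD as a whisker for each group of 5, on axes that start at 0. In the middle panel the untreated control points, 0.407 to 0.555, lie below every point of the other groups.

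Ratios between the other members that act on one another were formed in the same way. Sgk1 over Nedd4l, the kinase over the ligase it inhibits, averaged 2.01 ± 0.33 in alkali oxalate, 4.20 ± 1.35 in untreated oxalate, 1.99 ± 0.60 in alkali control and 2.29 ± 0.69 in untreated control libraries (SD, n = 5 each). All untreated oxalate libraries, at 2.67 to 5.78, were above all alkali oxalate libraries, at 1.49 to 2.26, and overlapped with the untreated control range of 1.61 to 3.44. Hsd11b2 over Nr3c2, the guarding enzyme over the receptor, averaged 40.2 ± 9.3 in alkali oxalate, 41.4 ± 5.5 in untreated oxalate, 33.3 ± 3.6 in alkali control and 32.8 ± 2.5 in untreated control libraries. Its lowest untreated oxalate library, at 36.3, was above the highest untreated control library, at 35.4.

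In the order of group means, 4 members ran alkali oxalate, untreated oxalate, alkali control, untreated control from high to low: Scnn1b, Scnn1g, Nr3c2 and Hsd11b2. For Scnn1b and Hsd11b2 the step from untreated oxalate to alkali control was free of overlap, and the neighbours above and below it overlapped. Sgk1 and Tsc22d3 shared another order, with untreated oxalate highest, then untreated control, alkali control and alkali oxalate, and each neighbouring pair overlapped. The mean of Nedd4l, the inhibitor of the channel, was highest in alkali control (123 ± 4.5 CPM) and lowest in untreated oxalate libraries (99.2 ± 11.7 CPM). Fxyd4 ran alkali oxalate, alkali control, untreated oxalate and untreated control, with overlap at each step.

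Members also varied together between libraries of the same group, described by the Pearson correlation of log2 CPM after the mean of each group was subtracted, over 20 libraries that share their scaling and their mixture of cells. Scnn1b, Scnn1g and Hsd11b2 formed the closest set, at 0.914 for Scnn1b with Hsd11b2, 0.903 for Scnn1g with Hsd11b2 and 0.875 for Scnn1b with Scnn1g. Scnn1a was nearer to Tmco4 (0.891) than to Scnn1b (0.720). Sgk1 and Tsc22d3 correlated with each other at 0.417, and their nearest genes of the 12374 compared were S1pr1 and Plod2 for Sgk1 (0.682 and 0.621) and Ccn2 and Rbmxl1 for Tsc22d3 (0.759 and 0.712). Nearest to Scnn1b was Tmem50b (0.934), and nearest to Hsd11b2 was Kctd1 (0.919). Nr3c2 was nearest to Tspan7 and Me3 (0.884 and 0.824), Nedd4l to Grb7 and Evc2 (0.860 and 0.856) and Fxyd4 to Pon3 and Rpl31 (0.798 and 0.793).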

How the data were processed

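Poly(A) RNA was sequenced from 20 mouse libraries with a stranded kit, per the labels' protocols. The deposited values are raw counts per Ensembl mouse gene, made by the authors with bcl2fastq 2.19, Trimmomatic, STAR 2.7.1 and featureCounts, per the submitters' processing notes, which name a human build, GRCh38.p5, although the identifiers are mouse. Of 25700 identifiers, 25664 matched GENCODE M21 (GRCm38). The other 36 held at most 0.0226% of a library's counts. Counts were tested with edgeR 4.0.16 (R 4.3.3; filter with a minimum count of 10, TMM scaling, robust quasi-likelihood fit of 4 group means over 20 libraries, common biological coefficient of variation 0.200), with p-values adjusted by Benjamini-Hochberg over 15430 genes and calls at 0.05. CPM are TMM-scaled, SE is |log2 fold change| / √F, and levels per kb use merged exon length. No pair of libraries of a group agreed within sampling noise (chi-square per degree of freedom 9.55 to 232). Named pathway genes were the called genes with the smallest p, up to 3 per list and comparison, and Prss8, Slc12a3, Kcnj1, Nr3c1, Per1 and Fkbp5. Of the genes the naming rule covers, 2 are not reported here. The members and lists were chosen with earlier results of these data known. Alternatives were RLE or total-count scaling, no filter, DESeq2 1.42.0, limma voom 3.58.1, fits of the compared groups alone, and leaving out each library. The procedure was tested on simulated data with few changed genes, so that test does not cover shifts as broad as those seen here.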

Additional observations from a re-analysis of the deposited data

Results flagged for a closer look

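Of 36 groups of 5 values, 1 had a library that stood far from the others: Scnn1g in untreated control replicate 35, at 50.18 CPM, where the nearest library had 42.54 CPM and the lowest 39.94 CPM. The gap was 0.746 of the group's range, above the critical value of 0.710 for 5 samples, and chance gives about 1 such group in 20.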

How the results depend on the processing

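No paired analysis was possible because the groups share no replicate numbers. The number of members called was 5 in untreated oxalate against untreated control, 2 in alkali oxalate against untreated oxalate, 5 in alkali oxalate against alkali control, and 0 in alkali control against untreated control and in the interaction. Leaving out 1 library at a time gave 5 to 6, 1 to 3, 3 to 6, 0 and 0 in the same order. Fitting the compared groups alone gave 0 in alkali oxalate against untreated oxalate, and 4 in alkali oxalate against alkali control, as did RLE scaling, limma voom and no filter in that comparison, each without Scnn1a. Without the Adipoq libraries, which left fewer samples in the fits, the count was 2 in untreated oxalate against untreated control. It was 1 in alkali oxalate against alkali control. Over all genes, 3969 were then called higher and 4039 lower in the first of these comparisons, against 4067 and 3563 in the main fit. In the second, 2263 were called higher and 956 lower, against 3604 and 2633. Total-count scaling reversed Scnn1a (0.20), Nedd4l (0.13) and Slc12a3 (0.0445) in untreated oxalate against untreated control, Sgk1 (0.0576), Nedd4l (0.0404), Tsc22d3 (0.0902) and Per1 (0.15) in alkali oxalate against alkali control, and the interaction of Nedd4l (-0.0862; -0.0026 with limma voom). Without the Adipoq libraries, Kcnj1 reversed in untreated oxalate against untreated control (-0.11), Nr3c2 in alkali control against untreated control (-0.0275), Per1 in alkali oxalate against alkali control (0.053) and the interaction of Fxyd4 (-0.22). Leaving out 1 library reversed small effects only: Nr3c1 (-0.0453 to 0.15) and Scnn1a (-0.0323 to 0.20) in alkali oxalate against untreated oxalate, Kcnj1 (-0.0003 to 0.17) in untreated oxalate against untreated control, Per1 (-0.28 to 0.17) and Sgk1 (-0.25 to 0.0020) in alkali oxalate against alkali control, Sgk1 (-0.21 to 0.11) in alkali control against untreated control, and the interactions of Fxyd4 (-0.0167 to 0.24), Hsd11b2 (-0.0469 to 0.18) and Nedd4l (-0.0381 to 0.0694). The cause of these reversals was not tested. With 5 libraries a group, small differences between members are within the spread between libraries.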
